A study of Mus musculus with 5 samples.

Results

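The genes of the translation initiation and elongation factors were described here across atria of MRC2 E990G-het and wild-type mice. Members were all genes of the authors' deposited table whose symbols begin with Eif1 to Eif6, Eef1 or Eef2, leaving out the eIF2 kinase genes, the sex-linked pair Eif2s3x and Eif2s3y, and pseudogenes. Of 67 matching symbols 7 were left out, which gave 60 members of 14927 genes. The 60 genes were sorted into 13 roles in translation. The rule used symbols and presence in that table, not fold changes.

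The series describes 8 wild-type mice (WT) and 7 MRC2 E990G-het mice (het), which carry 1 changed copy of the gene, aged 4 to 10 months, whose atria were snap-frozen. MRC2 is an endocytic receptor for collagen. Polyadenylated RNA libraries of 3 het mice (replicates 5, 6 and 7) and 2 WT mice (replicates 7 and 8), all labelled batch 2, were analysed here. No treatment, Cre or transgene is given in the labels, and the strain and sex are not given in the sources used here. Whole atria hold several cell types.

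Translation of most mRNAs starts when eIF4E binds the 5′ cap, eIF4G bridges it to the helicase eIF4A, and eIF3 brings the small ribosomal subunit. The small subunit already carries eIF1, eIF1A, eIF5 and the initiator tRNA on eIF2, which eIF2B recharges with GTP. Elongation then cycles between eEF1A, which delivers aminoacyl-tRNAs and is recharged by the eEF1B complex, and eEF2, which moves the ribosome along. In the heart, eIF4E is held back by the 4E-binding proteins until mTORC1 phosphorylates them, and adult cardiomyocytes express the muscle and neuron form eEF1A2 beside the general form eEF1A1.

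Start-site sequences were taken from RefSeq (GRCm38.p6), where 46 of the 60 members had an entry. Shown are the member called higher in het atria (Eif4ebp2), the cap-binding factor it restrains (Eif4e), and the paralogue pair Eef1a1 and Eef1a2. The call, given below, was lost with any het library left out. Each sequence runs from 250 bases before to 20 bases after the annotated start, 5′ to 3′ on the gene's strand. Eif4ebp2 lies at chr10:61452650-61452919 (minus strand), Eif4e at chr3:138527018-138527287 (plus strand) (1 of its 2 entries), Eef1a1 at chr9:78481705-78481974 (minus strand) and Eef1a2 at chr2:181156996-181157265 (minus strand). Capitals mark matches, on either strand, to CACGTG (the E-box), CCGGAAG (an ETS-type motif), TGACGTCA (the cyclic AMP response element) or TATAAA, the core promoter box.
Eif4ebp2: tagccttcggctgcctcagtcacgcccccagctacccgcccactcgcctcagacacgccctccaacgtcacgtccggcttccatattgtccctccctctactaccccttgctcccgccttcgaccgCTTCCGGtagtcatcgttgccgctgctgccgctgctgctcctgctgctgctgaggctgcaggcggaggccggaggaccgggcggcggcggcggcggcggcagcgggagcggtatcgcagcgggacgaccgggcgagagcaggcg
Eif4e: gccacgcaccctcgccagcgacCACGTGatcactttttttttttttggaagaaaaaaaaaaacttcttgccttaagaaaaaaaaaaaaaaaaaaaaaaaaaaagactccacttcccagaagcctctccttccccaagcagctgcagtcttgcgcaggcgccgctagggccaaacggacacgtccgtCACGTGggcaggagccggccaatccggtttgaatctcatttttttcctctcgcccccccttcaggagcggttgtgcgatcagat
Eef1a1: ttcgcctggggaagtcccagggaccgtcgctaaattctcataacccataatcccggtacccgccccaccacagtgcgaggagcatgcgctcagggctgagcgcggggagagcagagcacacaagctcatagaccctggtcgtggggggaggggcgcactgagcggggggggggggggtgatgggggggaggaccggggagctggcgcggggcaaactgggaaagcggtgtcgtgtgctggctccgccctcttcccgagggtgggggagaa
Eef1a2: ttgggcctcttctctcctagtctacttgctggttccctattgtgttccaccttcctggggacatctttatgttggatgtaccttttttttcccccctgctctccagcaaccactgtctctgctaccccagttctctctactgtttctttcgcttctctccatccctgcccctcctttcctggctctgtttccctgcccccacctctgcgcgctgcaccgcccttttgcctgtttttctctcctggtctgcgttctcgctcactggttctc
The Eif4e window held 2 E-boxes and the Eif4ebp2 window 1 ETS-type match, while those of Eef1a1 and Eef1a2 held none of the 4 motifs. In the full 300-base windows, 13 members had an E-box, which is 28.3% of the members with an entry, against 11.2% of the tested genes with one. The ETS-type motif was found in 16 members (34.8%, against 18.1%), TATAAA in 4 (8.7%, against 9.47%) and TGACGTCA in 1 (2.17%, against 3.34%). Of all genes with an entry, 8.09%, 9.93%, 15.7% and 2.03% held the E-box, the ETS-type motif, TATAAA and TGACGTCA. No motif of the 4 contains another, and a match describes the sequence and not a bound site.

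Total expected counts ran from 17784601 (WT 8) to 28353091 (het 7) per library, and mitochondrially encoded genes took 12.98% to 17.7% of them. Atrial cardiomyocyte markers summed to 30025 to 35195 CPM (expected counts scaled to a common library total) in het and 46820 to 49523 in WT libraries, with 2 of 6 called lower and none listed at 0. General cardiomyocyte markers summed to 37339 to 43278 in het and 46611 to 48452 in WT (1 of 6 higher, 1 lower). Ventricular markers summed to 66.3 to 192 CPM in any library, so the labelled tissue showed its own markers. Listed skeletal muscle markers summed to 794 to 964 CPM in het and 1340 to 1409 in WT, with 2 of 6 tested called lower. These were Ckm (542 to 720 against 929 to 1020 CPM) and Myl1 (195 to 237 against 372 to 394), which made up most of the sum. The sum thus says little of the other listed genes, of which Myh1 and Myh4 were at 0 in at least 1 library. Macrophage markers were higher (240.0 to 328 against 191 to 192; 2 of 6 called higher). Erythroid markers summed to 2652 to 5252 against 598 to 2143 CPM with 0 of 5 called, and fibroblast markers to 1886 to 2121 against 1448 to 1992 (1 of 7 higher). Endothelial markers summed to 901 to 953 against 788 to 873 CPM and neuron and Schwann markers to 46.0 to 66.6 against 47.2 to 50.5, with 0 called in both lists. WT 7 alone held Y-linked counts (938 of Ddx3y, where the other libraries had 0 to 3), and it had 21.5 expected counts of Xist, where the other libraries had 6117 to 15280. By these genes WT 7 was the only male library, so sex differed within WT and between the groups. These differences move with the genotype groups or with 1 library. Their part in the values of the members was not tested, and in whole atria fewer cells of a type and less RNA per cell cannot be told apart.

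The members differed far more in level among themselves than between the groups. Between genes, levels are given as TPM, which are scaled to transcript length. Eef1a1 was the highest, with 2061, 2387 and 2177 TPM in het 5, 6 and 7 and 1743 and 1952 in WT 7 and 8. It made up 24.9% to 29.7% of the summed TPM of all members, which was 6991 to 8049 per library. Eef2 followed at a mean of 824 TPM, then Eif1, the start-codon fidelity factor, at 533 TPM, Eef1a2 at 429 and the helicase gene Eif4a2 at 351. The eEF1B subunit genes Eef1d, Eef1g and Eef1b2 and the hypusinated factor gene Eif5a stood close together, at means of 252, 227, 230.3 and 245 TPM. Their ranges over libraries overlapped, but Eef1d and Eif5a each exceeded Eef1g in every library. The order of Eef1b2 and Eef1g changed between libraries, as did that of Eef1d and Eif5a. Eef1a2 (362 to 470.4 TPM) exceeded Eif4a2 (284 to 448 TPM) in every library, though their ranges overlapped. Of the 60 members 14 had a mean of at least 100 TPM and 4 were under 5 TPM. The lowest were Eif5a2, the second eIF5A gene (0.73 TPM), and Eif4ebp3, the third 4E-binding protein gene (0 to 1.79 TPM), which did not pass the expression filter.

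Between het and WT atria, most members were close to equal, and 3 of 59 tested passed the test. Eif4ebp2, a brake on cap-dependent translation, was higher in het, while its paralogue Eif4ebp1 and Eif6, which keeps the ribosomal subunits apart, were lower. Conditions were compared on CPM scaled by TMM with edgeR's quasi-likelihood test, adjusted over 16412 genes by the Benjamini-Hochberg method, and called at an adjusted p under 0.05. The call higher in het for 1 member is 1.69% of those tested, where 2.99% of all tested genes were called higher. The call lower for 2 members is 3.39%, where 2.66% of all tested genes were called lower. These shares are near the background. The background itself shrank with any het library left out. Over all genes, edgeR called 0 higher and 0 lower without het 7, where 12 members were at an unadjusted p under 0.05. It called 0 and 1 without het 5, and 5 and 6 without het 6. Such fits also hold fewer libraries, and the part of that in the lost calls was not tested. With length and GC trends removed, edgeR called 3 and 1. At an unadjusted p under 0.05 were 13 members (22.0%), 4 higher and 9 lower, where 24.7% of all tested genes were.

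Log2 fold changes of the members ran from -0.65 to 0.48. Of the 59 tested, 37 lay within 0.25 of 0, 21 were above 0 and 38 below. Their median was -0.079, against -0.0014 over all tested genes, and their median absolute value 0.196, against 0.279. The members' median was 0.069 without WT 8 and -0.15 without WT 7, -0.032 without het 7, and 0.063 on log2(TPM + 1), where that of all genes was 0.099. The lean below 0 thus turned with 1 library left out. Every het library lay above both WT libraries for 5 members (8.47%, background 21.1%) and below both for 19 (32.2%, background 21.1%). The SE of a member's log2 fold change had a median of 0.138, which limits what 5 libraries can show for a single member.

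**Figure D1:**
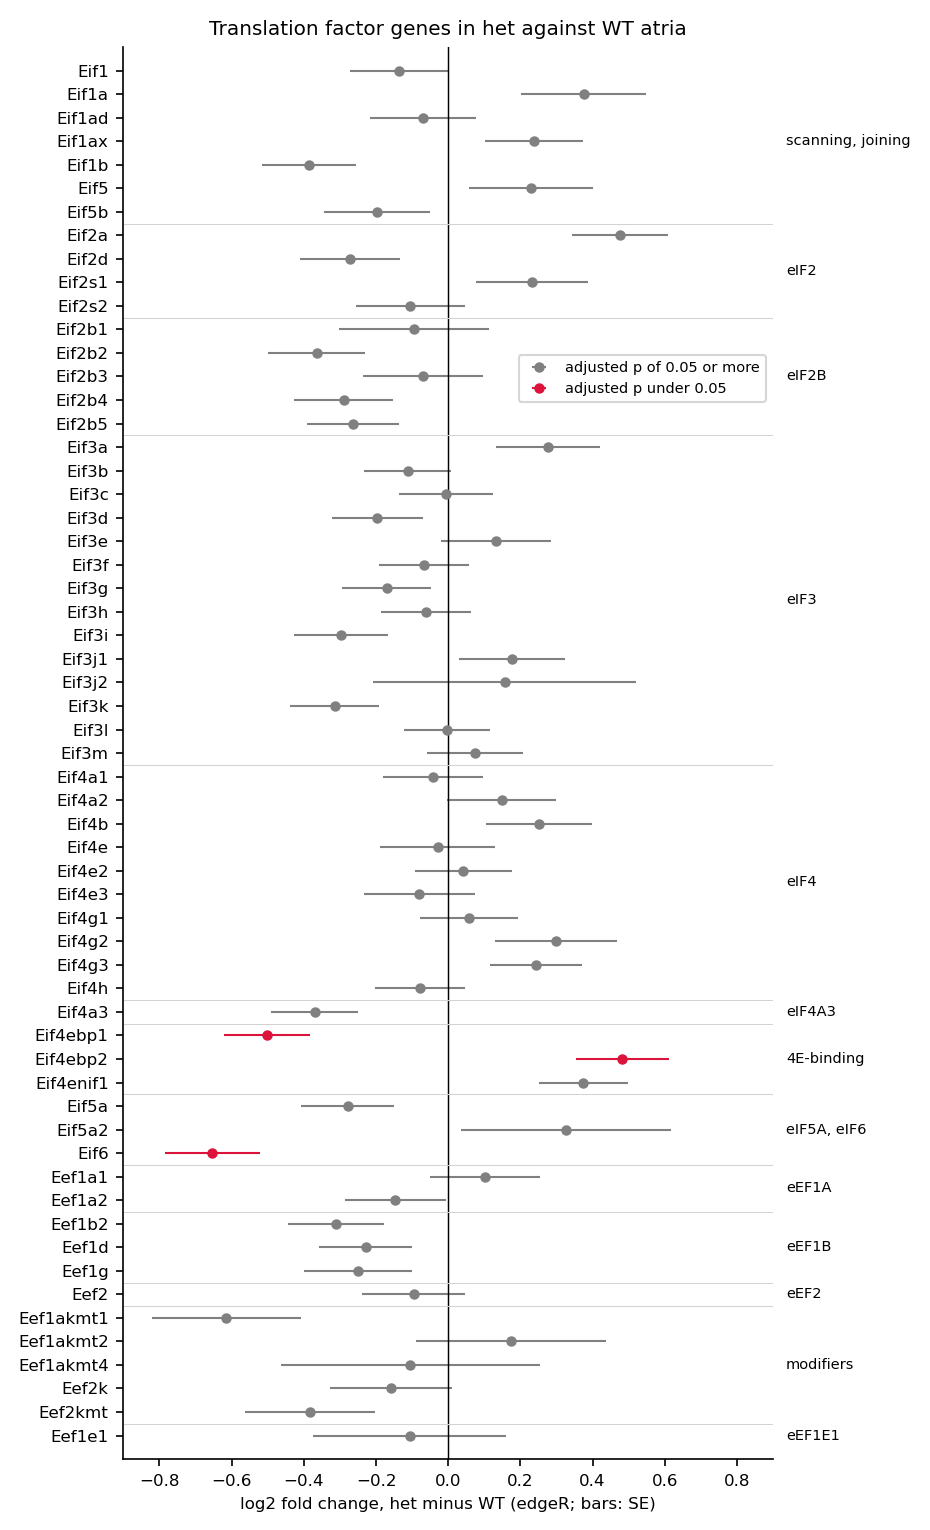
Log2 fold change of het minus WT (horizontal axis) for the 59 tested members, grouped by role in translation; bars are the SE of the edgeR fit and red points have an adjusted p under 0.05. Eif4ebp1 and Eif6 lie on the lower side and Eif4ebp2 on the higher side, and all 5 eIF2B genes and all 3 eEF1B genes lie below 0 without passing the test.

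Among the 4E-binding inhibitors, Eif4ebp1 and Eif4ebp2 moved in opposite directions in the edgeR fit. In the authors' deposited table they shared a sign, with log2 fold changes of -0.39 for Eif4ebp1 and -0.20 for Eif4ebp2. The 4E-binding proteins occupy the site on eIF4E that eIF4G needs. Eif4ebp2 (ENSMUSG00000020091) had 156, 147 and 161 CPM in het 5, 6 and 7 and 105 and 117 CPM in WT 7 and 8. The groups did not overlap. The mean was 155 ± 7.1 CPM in het (SD, n = 3) and 111 ± 8.42 in WT (SD, n = 2), a log2 fold change of 0.48 (SE 0.13, edgeR adjusted p = 0.047). Eif4ebp1 (ENSMUSG00000031490) had 64.2, 64.7 and 62.5 CPM in the het libraries and 95.5 and 85.2 in the WT libraries. The 3 het values were nearly identical and both WT values lay above them. It fell by 0.50 on the log2 scale (SE 0.12, edgeR adjusted p = 0.036), from 90.4 ± 7.32 CPM in WT (SD, n = 2) to 63.8 ± 1.18 in het (SD, n = 3). Eif4enif1, which encodes a transporter of eIF4E into the nucleus and to RNA granules, had 50.9, 50.2 and 53.3 CPM in het and 38.5 and 41.0 in WT. All het libraries were above all WT libraries, with a log2 fold change of 0.37 (SE 0.12) that did not pass the test (edgeR adjusted p = 0.084). Both calls were lost when het 5, het 6, het 7 or WT 7 was left out, at 0.41 to 0.52 for Eif4ebp2 (adjusted p = 0.099 to 0.13) and -0.41 to -0.51 for Eif4ebp1 (adjusted p = 0.085 to 0.11). Without WT 8, which like the fit without WT 7 leaves 1 WT library, both were called. On the length-scaled TPM, Eif4ebp1 exceeded Eif4ebp2 in every library, by 38.7 against 26.9 in het 5 and by 70.6 against 18.4 in WT 7. The 3 Eif4ebp1 het values were 38.7 to 41.7 TPM and the WT values 59.7 and 70.6, while Eif4ebp2 had 26.8 to 31.4 TPM in het and 18.2 and 18.4 in WT.

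Eif6 showed the largest absolute log2 fold change of the 59 tested members in the edgeR fit. eIF6 binds the large ribosomal subunit, takes part in its maturation and prevents it from joining the small subunit too early. Eif6 (ENSMUSG00000027613) had 33.1, 28.6 and 35.2 CPM in het 5, 6 and 7 and 51.5 and 50.2 CPM in WT 7 and 8. The groups were apart by more than the spread within either. The means were 32.3 ± 3.39 CPM (SD, n = 3) and 50.8 ± 0.91 (SD, n = 2), and the gene fell by 0.65 on the log2 scale (SE 0.13, edgeR adjusted p = 0.027). The call was lost without het 5, het 6, het 7 or WT 7 (-0.57 to -0.72, adjusted p = 0.053 to 0.094) and held without WT 8 (-0.66). Eif5a, the factor that relieves stalled ribosomes and carries the modified amino acid hypusine, had 226, 221 and 234 CPM in het and 259 and 292 in WT. Its libraries did not overlap either, but the log2 fold change of -0.28 (SE 0.13) did not pass the test (edgeR adjusted p = 0.20).

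**Figure D2:**
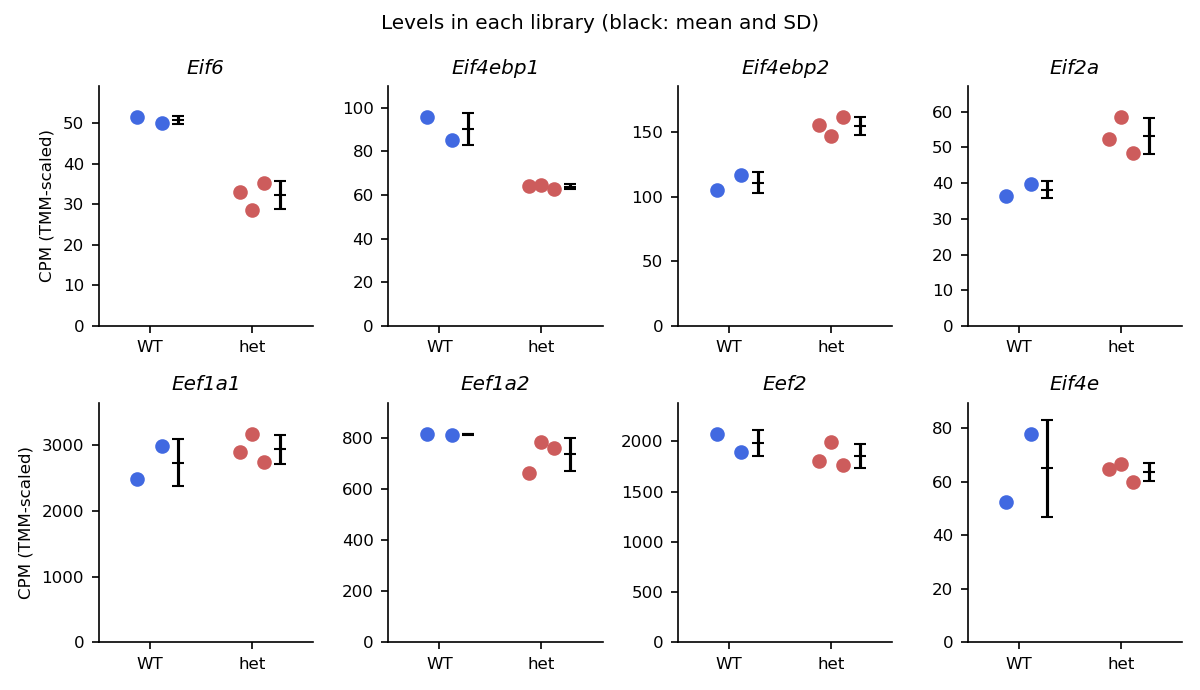
TMM-scaled CPM (vertical axes, from 0) of 8 members in each of the 2 WT (blue) and 3 het (red) libraries, with the mean and SD in black. The groups are apart for Eif6, Eif4ebp1, Eif4ebp2 and Eif2a, and overlap for Eef1a1, Eef2 and Eif4e.

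The eIF2 group delivers the initiator tRNA, and no gene of it was called. Eif2a, which encodes an initiator tRNA carrier used when eIF2 itself is limiting, came nearest. It had 52.4, 58.5 and 48.5 CPM in het 5, 6 and 7 and 36.5 and 39.9 CPM in WT 7 and 8, without overlap. Its log2 fold change of 0.48 (SE 0.13) had an edgeR adjusted p of 0.054, just outside the threshold, and it passed with DESeq2, with library size alone as scaling, and without a count filter. Eif2s1, the eIF2 alpha subunit whose phosphorylation shuts down initiation, had 47.0, 42.5 and 45.3 CPM in het and 31.6 and 44.9 in WT. The WT libraries differed from each other more than het from WT 8, and the log2 fold change of 0.23 (SE 0.15) did not pass the test (edgeR adjusted p = 0.38). The 5 eIF2B genes, subunits of the exchange factor that reloads eIF2 with GTP, all had folds below 0, with a median of -0.26 and 0 called. In 3 of the 5 the het libraries lay below both WT libraries, as they did for 21.1% of all tested genes. The median was -0.14 with the length trend removed and -0.041 with length and GC trends removed. On log2(TPM + 1) only 2 of the 5 were below 0, with a median of 0.028, and without WT 8 only 3 of the 5 were.

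Factors of start-codon scanning and subunit joining (7 members) held 0 calls in the edgeR fit of all libraries, with 3 folds above and 4 below 0. Eif1 had 458, 470.0 and 445 CPM in het and 461 and 545 in WT, so the groups overlapped (log2 fold change -0.14, SE 0.14, edgeR adjusted p = 0.58). Eif5b, the GTPase that joins the ribosomal subunits, had 128, 153 and 142 CPM in het against 140.3 and 183 in WT, again with overlap (-0.20, SE 0.15, edgeR adjusted p = 0.44). The eIF3 scaffold held 0 calls among 14 subunit genes. Of these, 5 had folds above and 9 below 0, from -0.31 to 0.28, and the median was -0.033. In 5 of the 14 the groups did not overlap, and in all of these every het library lay below both WT libraries. Of all tested genes, 21.1% lay wholly above and 21.1% wholly below. A set of 14 genes is too small to set a count against these shares. By fold, subunits of this complex lay on both sides of 0.

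The cap-binding and RNA-unwinding factors of the eIF4 group held 0 calls among 10 members, with folds from -0.081 to 0.30. Eif4e, the cap-binding protein gene, had 64.6, 66.5 and 60.0 CPM in het and 52.3 and 77.9 in WT. All 3 het libraries lay between the WT libraries (log2 fold change -0.03, SE 0.16, edgeR adjusted p = 0.93). Eif4a2 had 465, 533 and 436 CPM in het and 384 and 479 in WT (0.15, SE 0.15, edgeR adjusted p = 0.59). Eif4g2, an eIF4G relative that cannot bind eIF4E, had 887, 962 and 987 CPM in het and 625 and 914 in WT. WT 7 was the lowest library and WT 8 lay within the het range, and the log2 fold change of 0.30 (SE 0.17) did not pass the test (edgeR adjusted p = 0.30). Eif4a3, the RNA helicase of the exon junction complex, which is not an initiation factor in spite of its name, had 50.7, 51.6 and 55.6 CPM in het and 65.9 and 70.2 in WT. It did not overlap between groups, at -0.37 (SE 0.12, edgeR adjusted p = 0.082).

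Elongation factor levels were compared for the eEF1A pair. eEF1A1 is made in most cells, and eEF1A2 is the form typical of adult cardiac and skeletal muscle fibres and neurons. Both genes were well expressed in these atria, and Eef1a1 exceeded Eef1a2 in every library on the length-scaled TPM. Eef1a2 had 362, 460.4 and 470.4 TPM in het 5, 6 and 7 and 445 and 407 in WT 7 and 8. Eef1a1 was 5.69, 5.18 and 4.63 times as high in the het libraries and 3.91 and 4.80 times in the WT libraries. These ratios overlapped between the groups, since WT 8 lay within the het range. The log2 ratio of Eef1a2 to Eef1a1 was -2.36 ± 0.15 in het (SD, n = 3) and -2.12 ± 0.21 in WT (SD, n = 2). The difference of -0.25 had an exact two-sided permutation p of 0.4, where 0.2 is the smallest that 10 splits allow. Closely similar Eef1a1 pseudogenes can take part of its reads, so its level is uncertain.

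By gene, Eef1a1 had 2900.2, 3173 and 2737 CPM in het and 2480.0 and 2992 in WT, with overlap and a log2 fold change of 0.10 (SE 0.15, edgeR adjusted p = 0.73). Eef1a2 had 661, 783 and 759 CPM in het and 815 and 811 in WT. On CPM the het libraries all lay below the WT pair, het 5 by the most, and the log2 fold change of -0.15 (SE 0.14) did not pass the test (edgeR adjusted p = 0.56). On the length-scaled TPM, het 6 (460.4) and het 7 (470.4) lay above both WT libraries (445 and 407). On log2(TPM + 1) the log2 fold change was 0.0081. The summed atrial and general cardiomyocyte markers were lower in the 3 het libraries, as given above, but not every listed gene was lower. Of the 6 atrial markers, 2 folds were above 0 (Bmp10 and Tbx5) and 4 below (median -0.48). Of the 6 general markers, 2 were above 0 (Ryr2, called higher, and Pln) and 4 below (median -0.33). The medians shrank to -0.27 (atrial) and -0.13 (general) after both trends were taken out of each library. The part of these markers in the Eef1a2 value was not tested. Eef2, the translocase gene, had 1807, 1995 and 1765 CPM in het and 2076 and 1891 in WT, with overlap (-0.10, SE 0.14, edgeR adjusted p = 0.73).

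The 3 genes of the eEF1B exchange complex, which reloads eEF1A with GTP, all had folds below 0 and 0 calls, but Eef1d turned above 0 with length and GC trends removed (0.19). Eef1b2, the exchange subunit, had 154, 132 and 131 CPM in het and 163 and 182 in WT (-0.31, SE 0.13, edgeR adjusted p = 0.17). Eef1d, a further exchange subunit, had 126, 123 and 115 CPM in het and 131 and 154 in WT (-0.23, SE 0.13, edgeR adjusted p = 0.30). Both were without overlap. Eef1g, the scaffold subunit, overlapped, with 325, 309 and 343 CPM in het and 332 and 443 in WT (-0.25, SE 0.15, edgeR adjusted p = 0.33). Of the 5 genes of the kinase and methyltransferases of elongation factors, 1 fold was above and 4 below 0, with 0 called. Eef2kmt, which methylates eEF2, had 10.98, 9.98 and 13.7 CPM in het and 15.5 and 14.7 in WT, at -0.38 (SE 0.18, edgeR adjusted p = 0.21).

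The folds of the members ordered themselves by gene length. Of the 16 members under 1500 bases, 2 had folds above and 14 below 0, with a median of -0.29, where all tested genes of that length had -0.31. Of the 30 members from 1500 to 3000 bases, 8 were above and 22 below, with a median of -0.08. Of the 13 members over 3000 bases, 11 were above and 2 below, with a median of 0.24, against 0.21 over all genes of that length. The rank correlation of length and log2 fold change was 0.613 over the 59 members and 0.447 over all tested genes. Members share the 5 libraries, so these describe the libraries. With trends on length and GC content removed from each library, the medians of the short, middle and long members were 0.03, -0.04 and -0.03, and the rank correlation was -0.16.

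The 3 called members were read against this trend. Eif4ebp2 is a long gene (5784 bases), Eif6 a short one (1495 bases) and Eif4ebp1 of middle length (1826 bases). With length and GC trends removed, Eif6 stood at -0.39 (edgeR adjusted p = 0.21), Eif4ebp1 at -0.41 (edgeR adjusted p = 0.14) and Eif4ebp2 at 0.30 (edgeR adjusted p = 0.37). With the length trend alone removed, Eif4ebp2 stood at 0.18 (edgeR adjusted p = 0.54), Eif6 at -0.49 (0.12) and Eif4ebp1 at -0.41 (0.14). Each kept its sign and none was called in either fit. Eif2a stood at 0.34 and Eif4enif1 at 0.29. The lowest value was then that of Eif5b, the longest member at 7380 bases, which moved from -0.20 to -0.68 (edgeR adjusted p = 0.08).

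**Figure D3:**
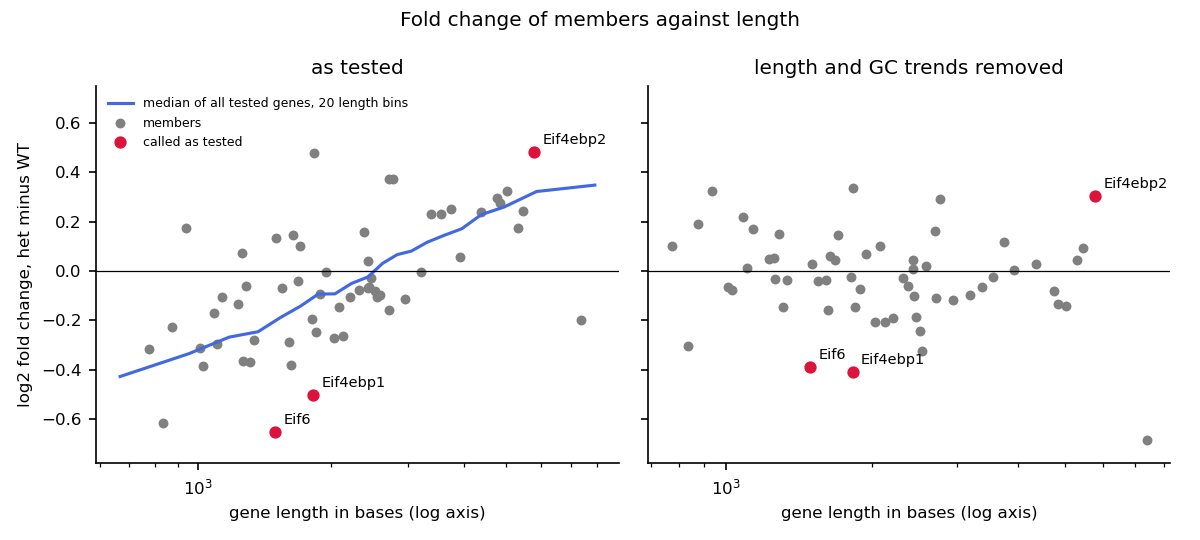
Log2 fold change of het minus WT against gene length in bases (log axis) for the 59 tested members, as tested (left) and with length and GC trends removed (right); the line is the median of all tested genes in 20 length bins and red points are the 3 members called on the left. The members follow the line on the left, from -0.43 in the shortest bin to 0.35 in the longest, and lie around 0 on the right, where Eif4ebp1 and Eif6 stay among the lower points.

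Transcripts were compared within genes, as the share of a gene's expected counts that each transcript took. For 18 members a second transcript held a mean share of at least 10%. The share of the leading transcript did not overlap between the groups in 4 of them (22.2%), and in 30.4% of 7143 genes treated the same way, so the members' share is not above the background. In all 4 it was higher in het, and the background was not split by direction. They are named here after their values were seen, and such shares carry no test of their own. In Eif4g1, the scaffold of the cap-binding complex, the coding transcript ENSMUST00000073840 (5394 bases) held 40.2%, 39.1% and 41.9% in het and 33.5% and 17.4% in WT. A transcript of 2200 bases that GENCODE M21 classes under nonsense-mediated decay (ENSMUST00000156226) held 6.93%, 6.49% and 7.38% in het and 15.5% and 18.0% in WT. In Eif5, which triggers GTP hydrolysis on eIF2, the leading transcript ENSMUST00000166123 held 58.8% ± 5.86 in het (SD, n = 3) and 48.3% ± 6.0 in WT (SD, n = 2). In Eef2k, the kinase gene that switches off eEF2, the 6580-base ENSMUST00000047875 held 61.8% ± 6.79 and 49.99% ± 4.77. In Eif2b5, the catalytic subunit of eIF2B, ENSMUST00000003320 held 89.6% ± 7.16 and 78.1% ± 5.85. In Eef2k, Eif2b5 and Eif5 the lowest het share exceeded the highest WT share by under 2 percentage points. The length trend given above was not removed from these shares. In Eif4g1 the transcript with the larger share in het was the longer of the pair given. The part of the length trend in these shares was not tested.

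The gene-level fall of Eif4ebp1 was shared unevenly by its 2 transcripts, which was seen after the values were known. The coding transcript ENSMUST00000033880 (1997 bases) had 63.2, 64.7 and 62.0 CPM in het 5, 6 and 7 and 85.2 and 76.3 in WT 7 and 8. ENSMUST00000210959, 798 bases long and classed in GENCODE M21 as a processed transcript without a coding frame, had 21.1, 0 and 12.9 expected counts in het and 252 and 153 in WT. In scaled values that was 0.478 ± 0.496 CPM in het (SD, n = 3) against 9.63 ± 0.97 in WT (SD, n = 2), or 20.2-fold higher in WT on the means. The coding transcript thus held 98.5%, 100% and 99.3% of the counts in het and 89.2% and 89.5% in WT. It accounted for 65.6% of the difference in mean CPM between the groups, with a log2 ratio of means of -0.35, and the short transcript for 34.4%. RSEM divides reads between overlapping transcripts by its model, so the split is an estimate. The length trend of the libraries was not removed here either, and the transcript with the smaller share in het was the shorter. Its part in this difference was not tested.

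**Figure D4:**
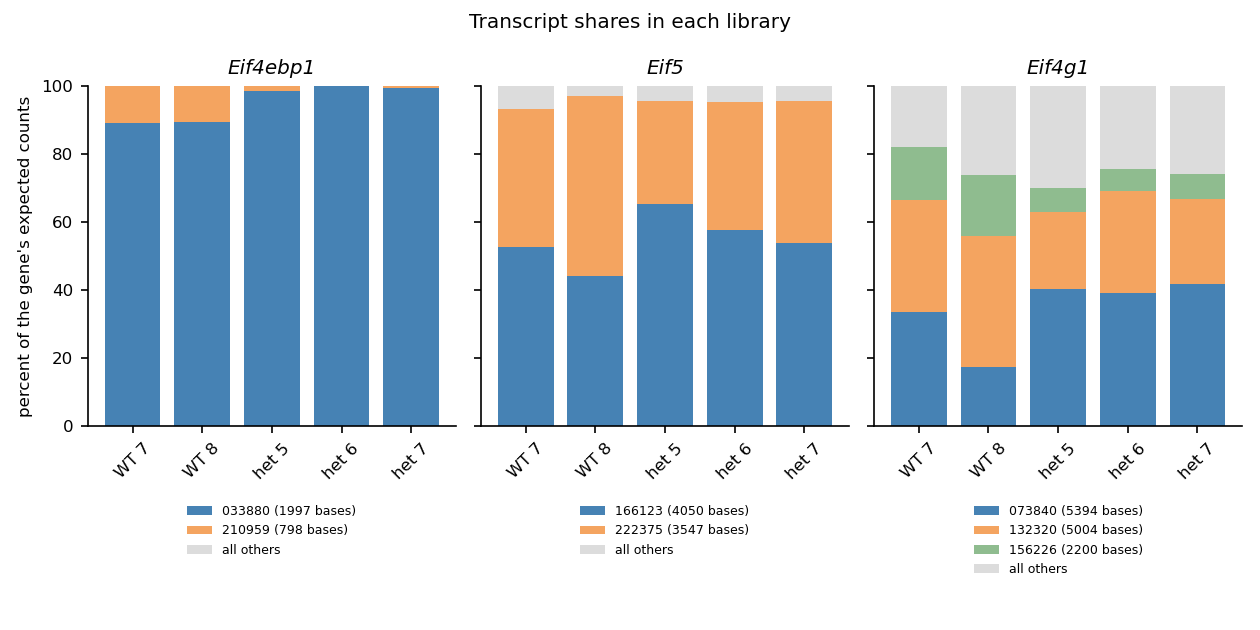
Percent of a gene's expected counts (vertical axis) held by its leading transcripts in each WT and het library, for Eif4ebp1, Eif5 and Eif4g1; colours are transcripts, labelled by the end of their identifier and length, and grey is the rest. The 798-base transcript of Eif4ebp1 takes over 10% in both WT libraries and under 2% in each het library, and the 2200-base transcript of Eif4g1 is larger in both WT libraries.

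The partners of the members were read from 6 lists of genes that act on translation factors. CPM of listed genes are expected counts scaled to the library total, without TMM, while their folds come from the edgeR fit. As background, 2.99% of all tested genes were called higher and 2.66% lower. Lists of 9 to 19 tested genes are too small to set a count against these shares. The eIF2 kinase and phosphatase genes held 0 calls among 9 tested (median 0.26, and 0.04 with length and GC trends removed). Targets of the integrated stress response, the programme switched on when eIF2 alpha is phosphorylated, held 2 lower and 0 higher of 19 tested, with a median of -0.34 (-0.08 with the trends removed). The 2 were Mthfd2, a mitochondrial folate enzyme (-1.21, SE 0.26, edgeR adjusted p = 0.029), and the transcription factor gene Atf5 (-0.47, SE 0.13, edgeR adjusted p = 0.048). Mthfd2 had 2.85, 4.41 and 4.97 CPM in het and 9.49 and 8.88 in WT, a low level without overlap. Among 16 genes of mTORC1 and the kinases that phosphorylate eIF4E, Akt1s1, an inhibitory mTORC1 partner, was lower (-0.49, SE 0.12, edgeR adjusted p = 0.041) and the median was 0.11.

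Poly(A)-binding, release and recycling factors held 1 higher and 0 lower of 14. It was Abce1, which splits ribosomes after termination, with 59.8, 63.1 and 63.6 CPM in het and 36.6 and 46.8 in WT (0.53, SE 0.14, edgeR adjusted p = 0.048). The enzymes that put hypusine on eIF5A and diphthamide on eEF2 held 2 lower and 0 higher of 9, with a median of -0.23 (-0.20 with the trends removed). Of all tested genes 2.66% were called lower, and a list of 9 is too small to set against that share. Both called genes belong to the 2-step hypusine pathway. Dohh, its hydroxylase, had 39.7, 35.0 and 35.8 CPM in het and 55.0 and 55.5 in WT (-0.63, SE 0.13, edgeR adjusted p = 0.026). Dhps, the synthase of the step before, had 9.0, 9.68 and 9.37 CPM in het and 15.4 and 14.2 in WT (-0.70, SE 0.17, edgeR adjusted p = 0.035). Their substrate gene Eif5a lay below 0 in the same libraries without passing the test. Among 10 mitochondrial translation factors Tsfm, the exchange factor of mitochondrial elongation, was lower (-0.74, SE 0.16, edgeR adjusted p = 0.031) and the median was 0.003. None of these 7 genes was called with length and GC trends removed or with any het library left out. Without WT 7 only Atf5, Dohh and Tsfm were called, and without WT 8 only Mthfd2, Abce1 and Dohh. Across the 5 fits that leave out 1 library, folds ran from -1.02 to -1.38 for Mthfd2, -0.35 to -0.58 for Atf5, -0.43 to -0.53 for Akt1s1 and 0.34 to 0.76 for Abce1. They ran from -0.58 to -0.70 for Dohh, -0.67 to -0.72 for Dhps and -0.56 to -0.88 for Tsfm. With the trends removed, Akt1s1 (-0.0042), Atf5 (-0.15) and Abce1 (0.17) were near 0, and Mthfd2 stayed at -1.2. Dohh then stood at -0.25, Dhps at -0.41, Tsfm at -0.43 and Eif5a at -0.036.

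The comparison that the authors deposited gave another order of the members. It holds log2 fold changes without the samples or model behind them, which are not given in the sources used here. Among members, 0 were called in the authors' deposited table, and the smallest adjusted p was 0.715 among members and 0.277 among all genes. Its statistic was 0 for 41 members and for 9779 genes, also where the log2 fold change was not 0, as for Eif6 (-0.08). A test against a minimum fold gives such zeros, while edgeR tested against a log2 fold change of 0. Its calls and p-values may therefore not be of like kind with those of edgeR. At p under 0.05 stood 3 members, where 5.6% of all genes did. They were Eif4e3, a variant cap-binding protein (0.75), Eif5b (0.99) and Eef2kmt (0.65), all higher in the authors' deposited table. In the edgeR fit the same genes were at -0.08, -0.20 and -0.38. On the lower side the smallest p-values of the authors' deposited table belonged to Eef1a2 (-0.77), Eif5a (-0.48) and Eif4ebp1 (-0.39). For Eif4ebp1 its interval ran from -0.71 to -0.07, with an adjusted p near 1. Eif6 (-0.08) and Eif4ebp2 (-0.20) showed no change of the edgeR size in the authors' deposited table, and Eif4ebp2 had the opposite sign. The members' median in the authors' deposited table was 0.029, against -0.035 over all genes, with 32 above and 28 below 0, and its rank correlation with length over the members was 0.047.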

How the data were processed

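Atria of 3 het and 2 WT mice were profiled as polyA RNA libraries. Per the submitters' processing notes, the tools were STAR and RSEM after Trim Galore, with limma and edgeR, FastQC, MultiQC and SAMtools, and the build GRCm39; versions are not given in the sources used here. The deposited gene and transcript tables hold expected counts, which the authors estimated with RSEM and did not normalize, per the file headers. The same tables hold TPM values that the authors scaled to transcript length and library total, and an isoform percent that the authors give for each transcript, which was not used; shares here were computed from expected counts. The authors' deposited table holds log2 fold changes, mean log2 expression, a moderated score (t) and p-values.

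Groups came from the sample titles. Nothing in the labels says that the libraries came from separate litters or days, so p-values measure the spread between these 5 samples. RSEM estimates were first rounded to integers, and 16412 of 57186 genes passed edgeR's default filter and were tested with edgeR's quasi-likelihood test (robust, TMM scaling) with Benjamini-Hochberg adjustment. The biological coefficient of variation was 0.18, and SEs were obtained from the fold change and its F statistic. Depths of 17784601 to 28353091 counts set the precision.

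Members, lists and roles were chosen with earlier results of these data known. Named were 6 fixed members (Eef1a1, Eef1a2, Eef2, Eif4e, Eif2s1 and Eif4ebp1), the 10 highest by mean TPM, called members, the 3 with the smallest p per direction in the edgeR fit and in the authors' table, and up to 3 called genes of each pathway list; others appear for levels or as stated. Alternatives were DESeq2, limma-voom, limma on log2(TPM + 1) with a pseudocount of 1, RLE scaling, library size alone, no filter beyond 1 count, a mean of at least 1 CPM, removal of length trends or of length and GC trends with mgcv offsets, and each library left out.

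No annotation of GRCm39 was used here, so coordinates are given only for RefSeq start-site sequences. RSEM's model splits reads that fit more than 1 gene, which touches Eef1a1, Eif3j1, Eif3j2, Eif1a and Eif1ax. Whether the counting used strand is not given in the sources used here. On simulated data for het against WT (16058 genes), edgeR found 79% of changes of 1 and 100% of changes of 2 on the log2 scale, with 7 false among 186 calls. The simulated counts had the same dispersion for every gene and no length trend or sex difference. Their changes were larger than any member's fold. These rates therefore need not hold for the calls reported here. Versions were DESeq2 1.42.0, edgeR 4.0.16, mgcv 1.9.3 and limma 3.58.1 under R 4.3.3.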

Additional observations from a re-analysis of the deposited data

How the results depend on the processing

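The calls among members changed with the fit and with the libraries used. Higher members numbered 1 in the edgeR fit, 2 with DESeq2, with library size alone and with no filter beyond 1 count, and 0 with limma-voom, with limma on log2(TPM + 1), with a mean of at least 1 CPM, and with length or length and GC trends removed. Lower members numbered 2 in the edgeR fit, 3 with DESeq2, 1 with limma-voom, and 0 with log2(TPM + 1) and with length or length and GC trends removed. With 1 library left out, both counts ran from 0 to 2, and both were 0 without het 5, het 6, het 7 or WT 7. Over all genes, the 490 higher and 436 lower calls went to 0 and 1 without het 5. They went to 5 and 6 without het 6, and to 0 and 0 without het 7. The fits without WT 7 or WT 8, which leave 1 WT library, kept more calls. Removing length and GC trends left 3 and 1. The fit on log2(TPM + 1) moved the median of all genes by 0.10 and the fit without a filter by -0.14.

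Of 14 alternative fits Eif6 was called in 7, Eif4ebp1 in 6 and Eif4ebp2 in 5, with unchanged sign in all 14. Eif2a was called in 3, Eif4a3 in 1 (DESeq2) and Eif1a in 1 (without WT 8, chosen after its values were seen). Members outside the named set also changed sign. Eif3k, for one, went from -0.31 to 0.047 with the length trend removed and to 0.10 with length and GC trends removed. Eif3h and Eif3g likewise turned above 0 in both of these fits. Among the named genes, signs turned only for those that no fit called. On log2(TPM + 1) the named genes that turned were Eef1a2 (0.0081), Eef2 (0.042), Eif4e (0.19) and Eif4e3 (0.063). With the length trend removed they were Eif1 (0.099) and Eef1d (0.10). With length and GC trends removed they were Eef1a2 (0.10), Eef2 (0.022), Eif2s1 (-0.063), Eif1 (0.049), Eef1d (0.19) and Eif4g2 (-0.082). Eif4e also turned with library size alone (0.020) and with no filter (0.018). With 1 library left out, Eef1a1 ran from -0.025 to 0.26, Eif4e ran from -0.29 to 0.30, Eif1 ran from -0.25 to 0.0049, Eif4a2 ran from -0.0011 to 0.33, Eif4e3 ran from -0.23 to 0.057 and Eif5b ran from -0.38 to 0.021. Of 392 values of named genes under alternatives, 288 kept direction and side of the threshold, 79 lost the call, 4 gained it and 21 changed sign; the cause was not tested. The Eef1a2 to Eef1a1 log2 ratio kept its sign, from -0.10 to -0.40.

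No paired analysis was possible because het replicates 5, 6 and 7 and WT replicates 7 and 8 share only the number 7. Eif4ebp3 did not pass the default expression filter and entered only the fits with no filter, without WT 7 and without WT 8.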
